A study of Mus musculus with 4 samples.

Results

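Mesothelial cells of the control lung at E16.5 (embryonic day) were taken from droplet single-cell libraries of sorted tdTomato-positive cells. The cells were chosen by measured values. A barcode counted as mesothelial when the summed level of Upk3b, Upk1b, Lrrn4, Gpm6a, Bcam and Krt19 was at least 20 CP10k (unique molecular identifiers, UMIs, per 10000 UMIs of the barcode). It also needed less than 2 CP10k of Sftpc, the surfactant gene of alveolar epithelium, and fewer than 3 of the 6 genes Col6a5, Igfbp3, Fndc1, Osr1, Smpd3 and Col6a6 with a UMI. Barcodes under 1000 detected genes or over 15% mitochondrial UMIs were left out first. This gave 324 of the 3889 control barcodes that passed, or 8.33%. Control library 1 held 26 of 282 (9.22%, exact Clopper-Pearson 95% interval 6.11 to 13.2) and control library 2 held 298 of 3607 (8.26%, interval 7.38 to 9.21), so that the intervals overlap. That overlap holds under the limit on the Col6a5 set, which followed depth as described below. Without that limit the shares were 37.2% (interval 31.6 to 43.2) and 18.9% (17.7 to 20.3), which do not overlap. The same rule found 0 of 412 barcodes in mutant library 1, where 3 counts would be 0.728%, and 4 of 4432 in mutant library 2 (0.0903%, interval 0.0246 to 0.231). These intervals cover counting error only.

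The series holds 2 Cre control and 2 Myrf mutant libraries, all from E16.5 embryos whose mothers were injected with tamoxifen at E12.5. Embryos carried Wt1creERT2, a tamoxifen-dependent Cre recombinase driven from the Wt1 gene, and an R26 tdTomato reporter, which once switched on by Cre labels a cell and all its progeny, so the sort selected cells of Wt1 lineage and not the mesothelium alone. The matings are written with Myrf Fl/Fl on both sides, which would give controls the same floxed alleles as mutants, so the Myrf genotype of the controls is not known from the labels. Each genotype was a pool of 3 to 5 lungs, from which about 50000 tdTomato-positive, DAPI-negative cells were sorted and about 16000 were loaded. Embryos were assigned by the look of the lung and its cells and later typed by PCR. Whether replicate libraries stand for separate pools is not stated. The p-values set the difference between cell groups of a library only against variation between these libraries, which may be technical. With so few libraries that variation was estimated with information shared across genes, and not from each gene alone.

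The mesothelium is the single layer of flattened epithelial cells that covers the lung and lines the body cavities, where it is called pleura around the lung. It arises from mesoderm, keeps both keratins and mesodermal transcription factors, and makes the lubricated outer surface of the organ. In the growing lung it sends signals, among them FGF9 and retinoic acid, to the mesenchyme beneath it, and some of its cells enter that mesenchyme. Myrf encodes a transcription factor that sits in the endoplasmic reticulum membrane and cuts itself free to enter the nucleus.

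Promoters are shown for genes with the largest rises over marker-low control cells, because the study concerns a transcription factor and several list genes answer to another, TEAD. Of the 15 genes with the largest rises described below, 7 had an entry in the RefSeq promoter table (build GRCm38.p6), which gave the 250 bases before each start. The core of the motif bound by MYRF, CTGGNAC, which reads GTNCCAG on the other strand, was in 0 of these 7 and in 5275 of all 32851 promoters of the same length (16.1%). The core bound by TEAD factors, the DNA-binding partners of YAP and TAZ, is GGAATG, which reads CATTCC on the other strand. It was in 2 of the 7, Fxyd3 and Frem2, and in 4153 of all promoters (12.6%). Both are printed 5′ to 3′ on the gene's strand with that match in capitals. A match is a description of the letters and not a shown binding site. The Fxyd3 stretch is chr7:31076698-31076947 and the Frem2 stretch is chr3:53657356-53657605, both on the minus strand.
Fxyd3: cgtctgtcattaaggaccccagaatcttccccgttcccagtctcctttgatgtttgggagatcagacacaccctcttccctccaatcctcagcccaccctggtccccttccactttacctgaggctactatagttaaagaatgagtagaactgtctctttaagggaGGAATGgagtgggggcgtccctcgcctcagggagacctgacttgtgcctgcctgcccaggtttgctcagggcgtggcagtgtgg
Frem2: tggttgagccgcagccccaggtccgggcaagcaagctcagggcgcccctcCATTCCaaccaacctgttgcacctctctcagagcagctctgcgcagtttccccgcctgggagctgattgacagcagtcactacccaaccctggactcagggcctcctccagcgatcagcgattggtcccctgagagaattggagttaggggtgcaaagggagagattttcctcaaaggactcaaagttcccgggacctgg

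The libraries differed in size and in the share of barcodes at intermediate marker levels. Control libraries 1 and 2 held 418 and 3969 deposited barcodes. In control library 2, 2225 of the 3607 barcodes that passed fell outside every group used here, with a median summed marker level of 13.6 CP10k between the groups, against 40 of 282 in control library 1. These 2225 had a median of 10558 UMIs and of 6.15% mitochondrial UMIs, against 3.97% in the mesothelial cells of that library. The 362 barcodes of control library 2 that failed the filter had a median of 900 UMIs. Their median summed marker level was 12.6 CP10k, against 0 in the failed barcodes of control library 1. What the 2225 barcodes are, and why failed barcodes lay near their marker level, was not tested. The mesothelial cells summed to 683446 and 4829523 UMIs in control libraries 1 and 2, with medians of 25498 and 14954 UMIs per cell. Control library 2 shared 5 barcode sequences with mutant library 2, of which 2 belonged to mesothelial cells, and control library 1 shared none.

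The choice of cells rests on measured values and is therefore no result. The 6 marker genes together stood at 4057 and 3563 CPM (UMIs scaled to a total of 1000000, summed over the cells of a group) in the mesothelial cells of control libraries 1 and 2. Upk3b, a uroplakin of the mesothelial surface, led them with 2073 and 1656 CPM. The limit of 20 CP10k cut through a continuum in control library 2, where the lowest member had 20.07 and the highest barcode below the limit 19.9 CP10k, with 36 members between 20 and 22 and 23 barcodes between 18 and 20. In control library 1 these values were 21.5 and 18.8 CP10k, with 1 and 2 barcodes. The Sftpc limit removed 4 and 199 barcodes of sufficient marker level. Because the rule used these markers they do not check the label. Wt1 and Msln, which the rule did not use, are given below, and a pleural origin cannot be told apart from mesothelium elsewhere.

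The condition on the Col6a5 set took away more cells than it left. Of 788 marker-high, Sftpc-low barcodes, 464 had at least 3 of the 6 Col6a5-set genes and were set aside as Col6a5-type cells, 79 in control library 1 and 385 in control library 2, so the mesothelial cells were 41.1% of all marker-high ones. Exactly 2 of these genes were seen in 19 and 182 members, and exactly 3 in 35 and 189 of the cells set aside. The condition followed depth: at least 3 genes were seen in 64.2% of the marker-high cells below and 86.5% of those above the median UMI count in control library 1, and in 41.5 and 71.3% in control library 2. When every cell was thinned to 5000 UMIs, only 14 of 79 (17.7%) and 101 of 379 (26.6%) Col6a5-type cells still had 3 of the genes. Median depth was 36543 and 21505 UMIs in Col6a5-type cells, above the mesothelial cells in both libraries. Col6a6, a collagen VI chain, still stood at 294 and 212 CPM in the mesothelial cells, against 344 and 236 CPM in Col6a5-type cells. Fndc1 stood at 1.46 and 6.42 CPM against 75.2 and 59.4 CPM, and Osr1 at 2.93 and 10.6 CPM against 43.1 and 66.0 CPM. In the marker-low cells described below Fndc1 stood at 40.8 and 69.5 CPM and Osr1 at 20.5 and 41.6 CPM, while the other genes of the set were lower there than in mesothelial cells. The rule used these genes, so their differences are no result.

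**Figure D1:**
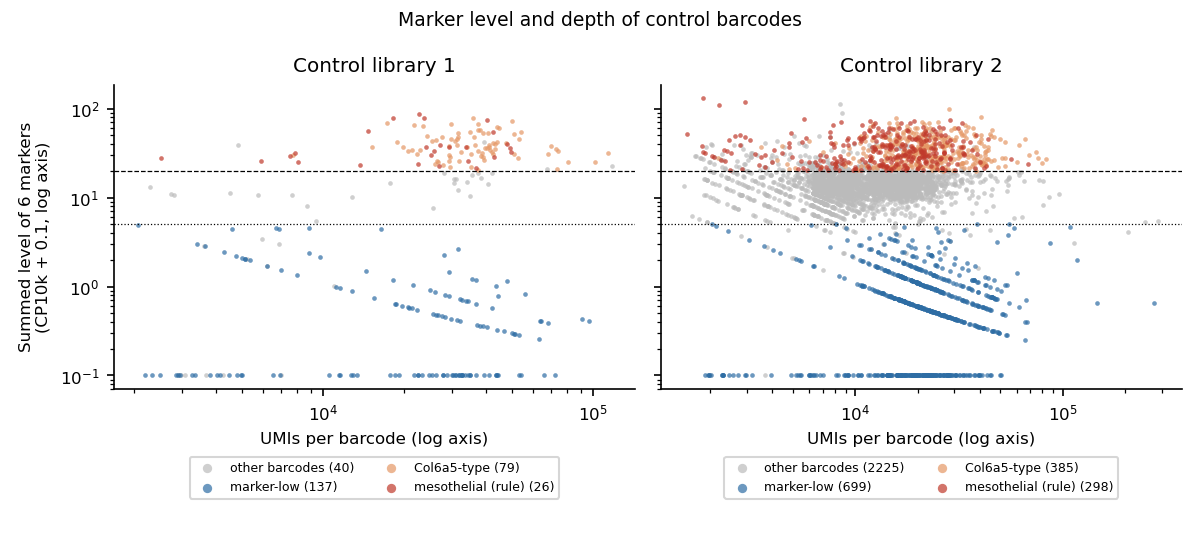
Each point is a control barcode that passed the filter, with its UMIs (log axis) and the summed level of the 6 markers in CP10k plus 0.1 (log axis), for control libraries 1 and 2. The dashed line marks 20 and the dotted line 5 CP10k; the mesothelial and Col6a5-type cells lie above the dashed line, and control library 2 has 2225 other barcodes, most of them between the lines.

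The mesothelial cells were set beside marker-low cells of the same libraries, which had a summed marker level under 5 CP10k and the same Sftpc limit. There were 137 and 699 of these, with medians of 26142 and 21009 UMIs. UMIs were summed per library and group and compared by edgeR's quasi-likelihood test with the library as a block and Benjamini-Hochberg adjustment. Of 12406 genes tested, 2369 were higher (19.1%) and 2059 lower (16.6%) in mesothelial cells at an adjusted p under 0.05, and 5596 had an unadjusted p under 0.05. The median change over all genes tested was -0.01. The counts and medians of the gene lists below are to be read beside these shares and this median. With the library as a block, a call says that a difference was large against variation between the 2 libraries, estimated with information shared across genes. Both groups were cut on the same 6 genes, so these calls do not show that the cells form a type. Across the 12406 genes the log2 levels (CPM plus 1) of the mesothelial cells of both libraries correlated at r = 0.947, and mesothelial with marker-low cells at 0.747 and 0.848 within control libraries 1 and 2. Genes are not independent replicates. Changes below are log2 ratios of mesothelial over marker-low cells with their standard error (SE), from 2 libraries, and levels are in CPM for control library 1 and then 2.

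Myrf (ENSMUSG00000036098, protein-coding, mm10 chromosome 19, 10208272 to 10240748) stood at 136 and 105 CPM in mesothelial cells and at 7.49 and 7.25 CPM in marker-low cells. The groups did not overlap and the log2 change was 3.98 ± 0.18 (edgeR adjusted p = 5.26e-06). Wt1 (ENSMUSG00000016458, chromosome 2, 105126529 to 105173616), a zinc finger transcription factor and the site of the Cre driver, stood at 148 and 151 CPM against 3.61 and 21.0 CPM. Its change was 3.47 ± 0.40 (adjusted p = 0.000363), and both mesothelial values lay above both marker-low values. The size rested on the library, at 2.83 without control library 1 and 5.03 without control library 2. Msln (ENSMUSG00000063011, chromosome 17, 25748613 to 25754378) encodes mesothelin, a lipid-anchored protein of the mesothelial surface. It stood at 155 and 122 CPM against 0.832 and 2.20 CPM, a change of 6.11 ± 0.28 (adjusted p = 5.26e-06).

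The 15 largest rises ran from 5.81 to 7.27 on the log2 scale (edgeR adjusted p 2.86e-06 to 1.82e-05). Muc16, the large mucin to which mesothelin binds, led with 70.2 and 69.4 CPM against 0.277 and 0.475 CPM, a change of 7.27 ± 0.31. Car9, a carbonic anhydrase of the cell surface, stood at 81.9 and 112 CPM against 0.277 and 1.37 CPM. Fxyd3, a small partner of the sodium pump, stood at 70.2 and 85.7 CPM against 0 and 1.13 CPM. All 3 were at 1.37 CPM or less in both marker-low sums. Efemp1, the matrix protein fibulin-3, reached 111 and 131 CPM, and Bnc1, the zinc finger factor basonuclin 1, reached 87.8 and 64.0 CPM against 0.277 and 0.951 CPM. Slc26a7, an anion exchanger, stood at 184 and 174 CPM, and Serpinb1a, a protease inhibitor, at 127 and 169 CPM. Pkhd1l1, Plscr2, Pnoc, Bst1 and Mpzl2 stood between 35.1 and 96.6 CPM in mesothelial cells, with changes from 5.81 to 6.32. The 10 largest falls ran from -6.00 to -4.92 (edgeR adjusted p 6.52e-06 to 6.28e-05). Scn7a stood at 0 and 1.04 CPM against 167 and 33.9 CPM, and Aspn at 0 and 1.24 CPM against 44.4 and 59.2 CPM. Robo2 stood at 1.46 and 4.76 CPM against 191 and 153 CPM, and Col13a1 at 0 and 2.48 CPM against 105 and 68.2 CPM. The others, Actg2, Ednrb, Cdh5, Vcan, Lef1 and Car2, are given with their lists below.

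A list of 30 mesothelial identity genes was drawn up with results of these data known, so its direction is no independent evidence. All 28 of its members that passed the low-count filter were higher, with a median change of 5.18. Krt7, a simple-epithelium keratin, stood at 307 and 337 CPM against 2.77 and 8.20 CPM, while its relatives Krt8 and Krt18 stood at 38.0 and 45.8 CPM and at 49.7 and 62.9 CPM in mesothelial cells. Stk26, a kinase, stood at 104 and 125 CPM, and Podxl, a charged surface protein, at 328 and 216 CPM. Calb2, which encodes the adult mesothelial marker calretinin, and Upk3bl were at or near 0, with 0 and 0.207 CPM each, and were not tested.

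**Figure D2:**
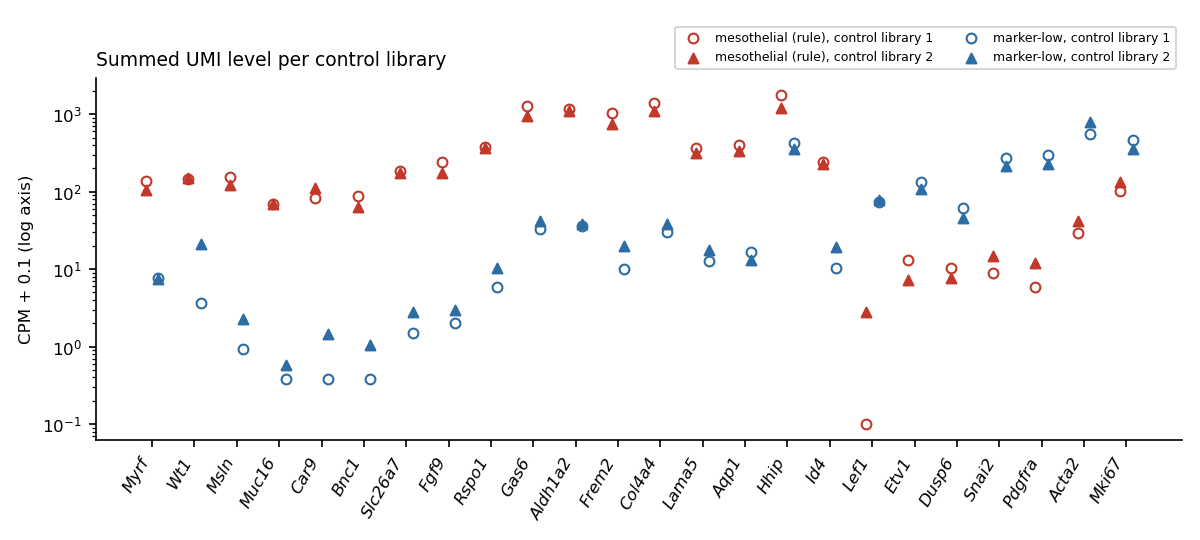
Points are CPM plus 0.1 (log axis) of named genes in the summed UMIs of mesothelial cells (red) and marker-low cells (blue), with circles for control library 1 and triangles for control library 2. From Myrf to Id4 both red points lie above both blue points, with Myrf at 136 and 105 against 7.49 and 7.25 CPM, and from Lef1 to Mki67 both lie below.

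Junction and polarity genes that build an epithelial sheet were raised in part. Of 26 tested members of that list, 13 were higher and 4 lower, with a median change of 0.97. Ezr, which encodes ezrin and ties surface proteins to actin, stood at 569 and 519 CPM against 14.7 and 19.1 CPM, a change of 4.99 ± 0.18. F11r, the junctional adhesion molecule A, changed by 3.16 ± 0.16, and Pard6b, a polarity protein, stood at 70.2 and 53.0 CPM against 1.11 and 1.49 CPM. Dsp, Dsg2 and Cgn, of desmosomes and tight junctions, were also higher, at 13.2 to 42.4 CPM. The mesenchymal filament gene Vim was higher too, with 1557 and 1559 CPM against 652 and 779 CPM. Cdh1, which encodes the epithelial cadherin, stood at 1.46 and 1.24 CPM and was not tested, and Cdh5, the endothelial cadherin, was lower (log2 change -5.15 ± 0.42). These cells thus held ezrin and polarity messages with almost no Cdh1 message.

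Transport genes had 9 higher and 3 lower of 17 tested, with a median change of 1.03. Aqp1, a water channel, stood at 405 and 338 CPM against 16.4 and 13.01 CPM (4.69 ± 0.14). Slc9a3r1, a scaffold that holds transporters beneath the membrane, stood at 209 and 234 CPM against 3.05 and 5.76 CPM (5.54 ± 0.20). Slc16a1, a lactate transporter, stood at 113 and 107 CPM against 5.55 and 8.26 CPM. Both carbonic anhydrases named here moved, in opposite directions, since the cytosolic Car2 was lower at 4.39 and 14.1 CPM against 412 and 345 CPM (-4.92 ± 0.27) where Car9 was higher.

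Among surface glycoproteins, 4 of 12 tested were higher and 3 lower. Gpc3, a heparan sulfate proteoglycan, stood at 2119 and 2398 CPM against 225 and 387 CPM, while its relative Gpc6 was lower (-2.93 ± 0.21). Has2, a hyaluronan synthase, stood at 0 and 0.414 CPM against 13.3 and 15.5 CPM. Tmem98, a membrane protein known to bind MYRF, stood at 80.5 and 55.3 CPM against 26.6 and 25.2 CPM (1.32 ± 0.19, adjusted p = 0.00108). Complement and defence genes had 9 higher and 0 lower of 13 tested, with a median change of 1.78. They included Serping1, which restrains complement C1, at 318 and 311 CPM against 54.6 and 50.2 CPM, Clu at 341 and 329 CPM, and C2. C3, the central component, stood at 0 and 1.24 CPM and was not tested.

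Basement membrane genes had 16 higher and 8 lower of 29 tested, with a median change of 0.63. The members moved by chain and not as a block. Col4a4 and Col4a3, chains of the specialised type IV collagen network, stood at 1413 and 1098 CPM against 30.5 and 38.1 CPM (5.18 ± 0.19) and at 266 and 170 CPM against 6.93 and 7.25 CPM (4.80 ± 0.20). The common chains Col4a1 and Col4a2 did not pass the test, with changes of -0.27 ± 0.11 and 0.05 ± 0.12. Lama5, a laminin chain of epithelia, was higher (4.44 ± 0.20) and Lama4, a chain of vessels and mesenchyme, lower (-2.26 ± 0.14). Frem2 (1053 and 739 CPM against 9.98 and 19.8 CPM, 5.82 ± 0.33) and Fras1 (335 and 274 CPM against 25.0 and 17.5 CPM, 3.89 ± 0.14) encode partners of 1 complex beneath epithelia. Their partner Frem1 was lower, at 2.93 and 3.93 CPM against 136 and 64.3 CPM.

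Fibrillar and elastic matrix genes were divided, with 10 higher and 11 lower of 30 tested. Col14a1, a collagen found at fibril surfaces, stood at 1687 and 1256 CPM against 217 and 238 CPM (2.69 ± 0.15). Col1a1, the main fibrillar collagen chain, was also higher, with 3199 and 2615 CPM against 1205 and 1856 CPM (0.97 ± 0.19). Vcan, the proteoglycan versican, stood at 4.39 and 14.3 CPM against 476 and 384 CPM (-5.08 ± 0.28), and Fn1, Postn and Tnc, which encode fibronectin, periostin and tenascin C, were lower, with log2 changes of -3.63, -3.84 and -3.87. Integrin and adhesion genes had 7 higher and 10 lower of 21. Itga3, a laminin receptor chain, was higher with its membrane partner Cd151, at 138 and 92.8 CPM against 5.55 and 5.59 CPM (4.25 ± 0.21). Alcam, an adhesion molecule, was higher and Vcam1 lower.

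Secreted ligands had 23 higher and 17 lower of 53 tested, with a median change of 0.19. Fgf9, a growth factor that acts on lung mesenchyme, stood at 241 and 176 CPM against 1.94 and 2.85 CPM (6.20 ± 0.22). Rspo1, an enhancer of Wnt signalling, stood at 373 and 370 CPM against 5.82 and 10.1 CPM (5.47 ± 0.21). Gas6, the ligand of the receptors Tyro3, Axl and Mertk, stood at 1273 and 952 CPM against 32.7 and 41.8 CPM (4.88 ± 0.20). For each of these ligands both mesothelial values lay above both marker-low values. Pdgfa, a ligand of PDGF receptor alpha, stood at 208 and 180 CPM against 18.6 and 19.8 CPM (3.31 ± 0.15). Further higher ligands were Igf2 at 2790 and 2284 CPM, Tgfb3 at 654 and 453 CPM and Sema3c at 471 and 331 CPM. Lower ones included Fgf10 at 1.46 and 2.69 CPM against 39.1 and 32.8 CPM, Wnt5a at 1.46 and 4.14 CPM against 76.3 and 51.1 CPM, and Vegfa. Pdgfb was at 0 in both mesothelial sums, as were Etv4 and Sp5 of the lists below, and the list medians do not depend on the size of their changes.

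Receptors went the other way, with 7 higher and 14 lower of 35 tested and a median change of -0.27. Over all genes tested 19.1% were higher and 16.6% lower, so the higher receptors were near the general share. Pdgfra, the receptor of the Pdgfa product, stood at 5.85 and 11.8 CPM against 302 and 227 CPM (-4.51 ± 0.23). The endothelin receptors Ednra and Ednrb were lower (-4.33 ± 0.24 and -5.25 ± 0.35), as was Lgr6, an R-spondin receptor (-4.73 ± 0.37). Fgfr2 stood at 10.2 and 9.94 CPM against 38.8 and 36.2 CPM (-1.86 ± 0.23). The Gas6 receptors Axl and Mertk did not pass the test, with changes of 0.18 ± 0.24 and -0.34 ± 0.30, and Tyro3 was lower. Met, the receptor of hepatocyte growth factor, was higher at 51.2 and 36.4 CPM against 18.03 and 17.9 CPM.

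Retinoic acid genes had 3 higher and 4 lower of 13 tested. The higher ones were the synthesis enzymes. Aldh1a2, which makes retinoic acid, stood at 1171 and 1099 CPM against 35.8 and 37.7 CPM (4.96 ± 0.13), Aldh1a1 at 211 and 133 CPM against 18.3 and 19.5 CPM, and Rdh10, which feeds them, at 71.7 and 99.6 CPM against 9.43 and 21.9 CPM. The lower ones included the carriers Rbp4 and Crabp1 and the receptor Rara.

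Hedgehog genes had 5 higher and 2 lower of 13 tested. Hhip, a target that binds and holds back hedgehog ligand, stood at 1787 and 1221 CPM against 419 and 361 CPM (1.94 ± 0.12). Gas1, a co-receptor, and Smo, the signal transducer, were higher (1.84 ± 0.27 and 0.99 ± 0.14) and the repressor Gli3 lower (-1.14 ± 0.17). Gli1, a common target, did not pass the test, with 105 and 73.5 CPM against 99.0 and 62.3 CPM. FGF-ERK response genes had 3 higher and 9 lower of 14, with a median change of -1.99. Etv1 stood at 13.2 and 7.25 CPM against 134 and 109 CPM and Dusp6, which switches off ERK, at 10.2 and 7.66 CPM against 61.8 and 45.8 CPM. The 3 higher members were Il17rd, a feedback inhibitor, and the immediate-early genes Fos and Egr1. As a group, the mesothelial cells thus held more Fgf9 and less of most of the FGF response messages than marker-low cells did. Whether this holds within single cells was not tested.

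Wnt response genes had 4 higher and 6 lower of 15. Lef1 and Tcf7, partners of beta-catenin, stood at 0 and 2.69 CPM against 74.6 and 78.4 CPM and at 2.93 and 5.18 CPM against 53.2 and 48.0 CPM. Dkk3 and Sfrp2, of secreted Wnt modulator families, were higher by 1.78 ± 0.13 and 1.97 ± 0.21, and the common target Axin2 did not pass the test (-0.38 ± 0.16). BMP and TGF-beta response genes had 9 higher and 2 lower of 16, with a median change of 0.83. Id4, an inhibitor of helix-loop-helix factors, stood at 243 and 224 CPM against 10.3 and 19.3 CPM (3.91 ± 0.23), and Id1, Id2 and Id3 were higher by 1.32, 0.90 and 1.30. Ltbp1, which stores latent TGF-beta in the matrix, was higher and Tgfbi lower (-2.64 ± 0.20). Id1 was the 1 named gene whose call depended on the comparison cells: against all other control barcodes its change was 0.26 (adjusted p = 0.299).

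YAP and TAZ genes and targets had 10 higher and 1 lower of 16, with a median change of 0.76. The lower 1 was Tead2, at 26.3 and 30.02 CPM against 111 and 110 CPM. Crim1 stood at 467 and 275 CPM against 37.7 and 27.6 CPM (3.48 ± 0.15), Ccn1, a matrix protein and classic target, at 901 and 458 CPM against 280 and 165 CPM (1.60 ± 0.12), and Ptpn14 at 84.9 and 74.1 CPM. Yap1 itself did not pass the test (-0.15 ± 0.18). Smooth muscle contractile genes had 1 higher and 12 lower of 19. Acta2, smooth muscle actin, stood at 29.3 and 41.6 CPM against 559 and 783 CPM (-4.22 ± 0.14), Actg2 at 0 and 1.66 CPM, and Mylk at 173 and 160 CPM against 744 and 683 CPM.

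**Figure D3:**
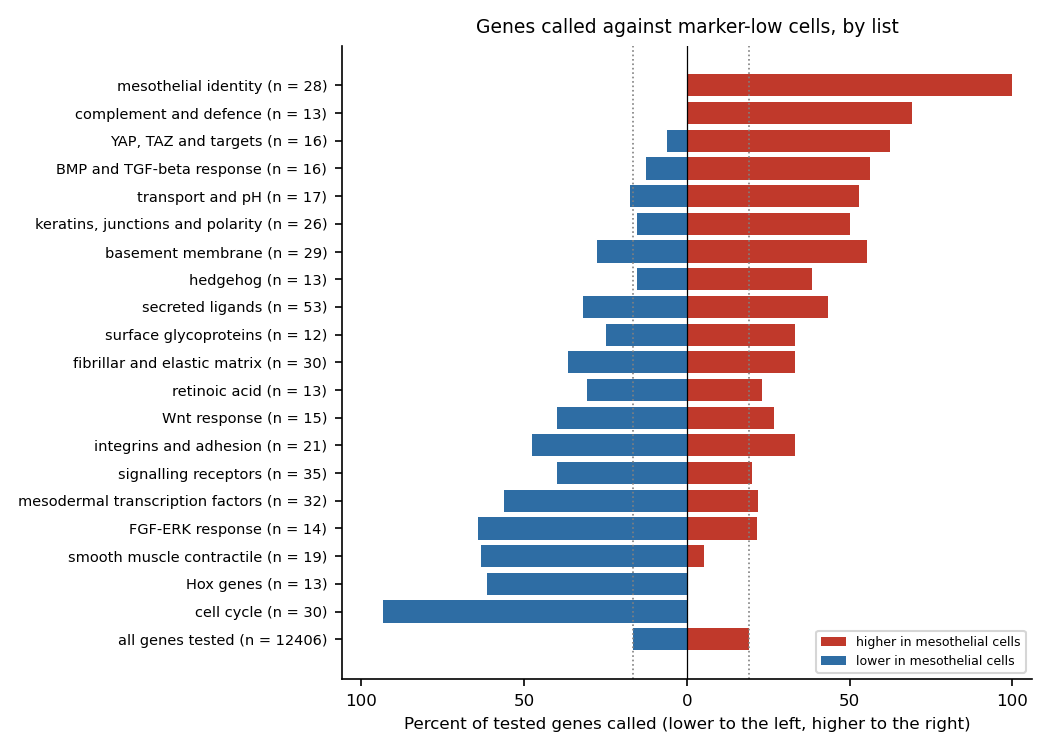
Bars give the percent of tested genes of each list that were called lower (left, blue) or higher (right, red) in mesothelial than in marker-low cells by edgeR at an adjusted p under 0.05, with the number tested in brackets. Dotted lines mark the shares over all 12406 genes, 16.6 and 19.1%; cell cycle genes lie farthest to the left (28 of 30 lower) and the identity list farthest to the right (28 of 28 higher).

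Mesodermal transcription factors had 7 higher and 18 lower of 32 tested, with a median change of -0.86. Zeb2 and Snai2, known from epithelial-mesenchymal transition, stood at 111 and 97.1 CPM against 1091 and 704 CPM (-3.03 ± 0.14) and at 8.78 and 14.7 CPM against 273 and 212 CPM (-4.06 ± 0.21). Tbx3 and Sox11, factors of limb and lung mesoderm and of progenitor cells, were lower (-3.45 ± 0.19 and -2.92 ± 0.16). The higher ones included Gata6 at 288 and 329 CPM and Klf4 at 338 and 233 CPM against 40.2 and 68.3 CPM. Hox genes, which carry position along the body axis, had 0 higher and 8 lower of 13. Hoxb5 stood at 20.5 and 18.6 CPM against 134 and 135 CPM (-2.80 ± 0.16), and Hoxa5, Hoxb4 and Hoxb2 were lower (-1.08 ± 0.13, -1.12 ± 0.14 and -1.20 ± 0.17). Hoxa5 was still present at 80.5 and 91.3 CPM.

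Cell cycle genes had 0 higher and 28 lower of 30 tested, with a median change of -1.44. Hmgb2, a chromatin protein of dividing cells, stood at 342 and 553 CPM against 1287 and 1597 CPM (-1.69 ± 0.12), and the spindle genes Kif11, Cenpe and Tpx2 were lower (-2.04 ± 0.19, -1.67 ± 0.14 and -1.45 ± 0.14). Control library 1 was below control library 2 in the mesothelial sums of many members, for example Top2a with 54.1 and 174 CPM. In control library 2 marker-low cells were deeper than mesothelial cells (medians of 21009 and 14954 UMIs), so cells were also compared at 5000 UMIs each. Mki67, a mark of cells in cycle, then had a UMI in 20% (5 of 25) and 18.6% (49 of 264) of mesothelial cells, with exact intervals of 6.83 to 40.7 and 14.1 to 23.8. The shares in marker-low cells were 43.6% (51 of 117) and 37.4% (252 of 674), with intervals of 34.4 to 53.1 and 33.7 to 41.2. Without thinning the shares were 26.9 and 29.9% of mesothelial cells and 59.1 and 53.4% of marker-low cells.

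Thinned cells also give the share of mesothelial cells with a UMI of a gene, for which 25 of 26 and 264 of 298 were deep enough. This share rises with the level of the gene, so a low share does not show that a gene was unevenly spread. Aldh1a2 had a UMI in 100% and 99.2%, Gas6 in 100% and 97.3%, Rspo1 in 76.0% and 79.2% and Fgf9 in 64.0% and 52.7% of mesothelial cells in control libraries 1 and 2. Wt1 had a UMI in 44.0% (interval 24.4 to 65.1) and 52.3% (46.1 to 58.4), against 1.71 and 8.90% of marker-low cells. Myrf had a UMI in 32.0% (8 of 25) and 40.2% (106 of 264), against 1.71 and 4.45%, and Msln in 28.0 and 30.3%, against 0 and 1.93%. The share differed between genes of a class, since the enzymes Aldh1a1 and Rdh10 had a UMI in 48.0 and 38.3% and in 24.0 and 34.8% of mesothelial cells. In marker-low cells Aldh1a2 was seen in 8.55 and 14.8% and Gas6 in 17.1 and 16.2%. Without thinning Myrf had a UMI in 76.9 and 72.5%, Wt1 in 88.5 and 78.9% and Msln in 57.7 and 48.7%, so the thinned shares are floors set by depth.

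**Figure D4:**
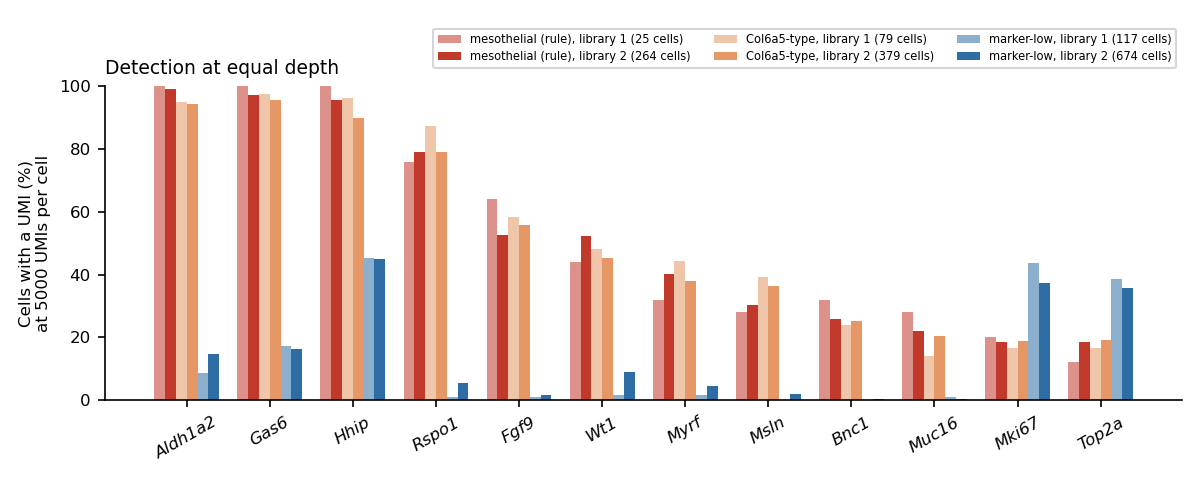
Bars give the percent of cells with at least 1 UMI of a gene after each cell was thinned to 5000 UMIs, for mesothelial (red), Col6a5-type (orange) and marker-low cells (blue), lighter for control library 1 and darker for control library 2. Aldh1a2, Gas6 and Hhip are seen in over 95% of mesothelial cells, Myrf in 32.0 and 40.2%, and Mki67 in fewer mesothelial than marker-low cells.

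The spread of a gene over cells was described by its Fano factor, the variance over the mean of UMIs at 5000 UMIs per cell, which is about 1 for counting noise alone. For the same relative spread the factor is larger at a higher mean, so it favours abundant genes and does not rank relative spread. Mki67, with means of 0.52 and 0.504 UMIs, had factors of 4.19 and 4.51, while H19, given below, had means of 24.3 and 20.4. Over 3626 genes with a mean of at least 0.2 UMIs the median was 1.14 in control library 1 and 1.09 in control library 2, and 89 genes (2.45%) were above 2 in both. Fos, an immediate-early gene, had factors of 8.37 and 10.98, with medians of 5 UMIs per cell and highest values of 23 and 54. Btg2, Atf3 and Egr1, of the same class, had factors of 9.32 and 5.82, 5.42 and 6.35, and 4.60 and 6.21. Fos and Egr1 correlated over cells at r = 0.679 (25 cells) and 0.786 (264 cells), and Fos and Atf3 at 0.713 and 0.699. Cells of a library share its preparation, and these r are given as descriptions. The immediate-early messages therefore varied together from cell to cell.

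Igfbp5, an IGF binding protein, had factors of 27.0 and 7.49, with medians of 10 and 8 UMIs and highest values of 92 and 50. Crip1, a small zinc-binding protein, had factors of 5.74 and 6.82, and the imprinted noncoding RNAs H19 and Meg3 had 6.02 and 4.95 and 4.51 and 5.48. The nuclear RNA Malat1 had 52.4 and 33.4 and moved with Meg3 at r = 0.678 and 0.523. Gm42418, a gene model that overlaps ribosomal RNA, had 543 and 44.4, and its level differed between libraries in both groups, with 25357 and 11938 CPM in mesothelial and 52131 and 7322 CPM in marker-low cells. Myrf and Wt1 showed no relation over cells, at r = 0.029 and 0.0562, where sparse counts allow no finding.

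Sums over markers of other cell types went both ways. In mesothelial cells fibroblast markers summed to 11460 and 9536 CPM, against 5345 and 7234 CPM in marker-low cells. Epithelial markers summed to 320 and 318 CPM against 62.7 and 56.4 CPM, and cardiac muscle markers to 233 and 260 CPM against 32.7 and 71.6 CPM. Sums of smooth muscle and pericyte, endothelial and erythroid markers were lower in mesothelial cells in both libraries. The 11 smooth muscle and pericyte markers summed to 217 and 298 CPM in mesothelial and to 1587 and 1937 CPM in marker-low cells, with 0 higher and 10 lower. Of 10 endothelial markers 7 were lower and 1, Kdr, was higher, at 76.1 and 54.7 CPM against 35.8 and 19.0 CPM, while the defining Cdh5 stood at 0 and 1.24 CPM. Of 12 fibroblast markers 7 were lower and 3, the collagens Col1a1, Col1a2 and Col3a1, higher, and the defining Tcf21 stood at 0 and 7.25 CPM. Of 12 epithelial markers 6 were tested, 1 was higher and 2 were lower. The higher 1 was Hopx, a homeodomain protein of alveolar and other cells, at 310 and 302 CPM against 11.4 and 8.68 CPM (5.01 ± 0.16), with Epcam at 0 and 3.31 CPM and Sftpb at 0 and 1.45 CPM. Immune markers summed to 2.93 and 14.9 CPM with Ptprc at 0 and erythroid markers to 101 and 19.3 CPM. In marker-low cells these sums were 1.94 and 51.3 CPM and 369 and 138 CPM. Neural and Schwann markers summed to 8.78 and 17.8 CPM against 23.6 and 12.4 CPM, with Sox10 at 0. Of these, S100b, a calcium-binding protein, was higher at 8.78 and 12.8 CPM against 3.05 and 5.76 CPM (1.25 ± 0.38, adjusted p = 0.0347). Of 8 cardiac muscle markers, Myl7 (117 and 114 CPM against 0.832 and 2.496 CPM) and Tnnt2 (110 and 141 CPM against 3.33 and 19.7 CPM) were higher, while Myh6 stood at 0 and 0.207 CPM and Actc1 at 0 and 1.04 CPM. The part of other cell types in the results was not tested.

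Of the 2 groups compared, the Col6a5-type cells, which shared the marker and Sftpc limits, were closer to the mesothelial cells. Their log2 levels correlated with those of the mesothelial cells at r = 0.9498 and 0.991 in control libraries 1 and 2. The 15 genes with the largest rises over marker-low cells did not pass the test here (adjusted p = 0.999 for each). Muc16, for example, stood at 70.2 and 69.4 CPM against 59.3 and 60.8 CPM. Of 12048 genes tested by edgeR in the same way, 0 (0.0%) were higher and 3 (0.0249%) lower in the mesothelial cells, and 458 had an unadjusted p under 0.05. Fn1, which encodes fibronectin, stood at 11.7 and 28.4 CPM in mesothelial and 106 and 103 CPM in Col6a5-type cells, a log2 change of -2.07 ± 0.19 (adjusted p = 0.000301). Igf1, a growth factor, stood at 68.8 and 96.1 CPM against 201 and 162 CPM (-0.98 ± 0.15, adjusted p = 0.0412). In both genes both libraries lay on the same side, with no overlap. Dmkn, which encodes dermokine and was named after its values were seen, stood at 2.93 and 4.76 CPM against 7.13 and 26.0 CPM (-2.32 ± 0.35, adjusted p = 0.0412).

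Myrf, Wt1 and Msln did not pass this test, with changes of 0.04 ± 0.11, 0.06 ± 0.11 and -0.12 ± 0.11 (adjusted p = 0.999 for each), which does not show that their levels were alike. Of the 30 cell cycle genes 27 had a negative change, with a median of -0.36 and a lowest adjusted p of 0.414. Over all 12048 genes tested, 6102 had a positive change. The cell cycle genes summed to 1250 and 2070 CPM in mesothelial and to 2688 and 2295 CPM in Col6a5-type cells. The gap was thus mainly in control library 1, with its 26 mesothelial cells, and small in control library 2. At 5000 UMIs Mki67 was seen in 13 of 79 and 71 of 379 Col6a5-type cells, beside 5 of 25 and 49 of 264 mesothelial cells. The calls depended on the fit. Without the library as a block 0 genes were called and Fn1 had an adjusted p of 0.300. DESeq2 called 0 genes higher and 1 lower, which was Fn1, and Igf1 had an adjusted p of 0.0661. With the Col6a5-set condition applied to cells thinned to 5000 UMIs, an alternative chosen after seeing the data, 40 genes were higher and 102 lower, and Fn1 and Igf1 changed by -3.35 and -1.41. Depth differed between the groups under the original condition, and its part in the result was not tested.

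**Figure D5:**
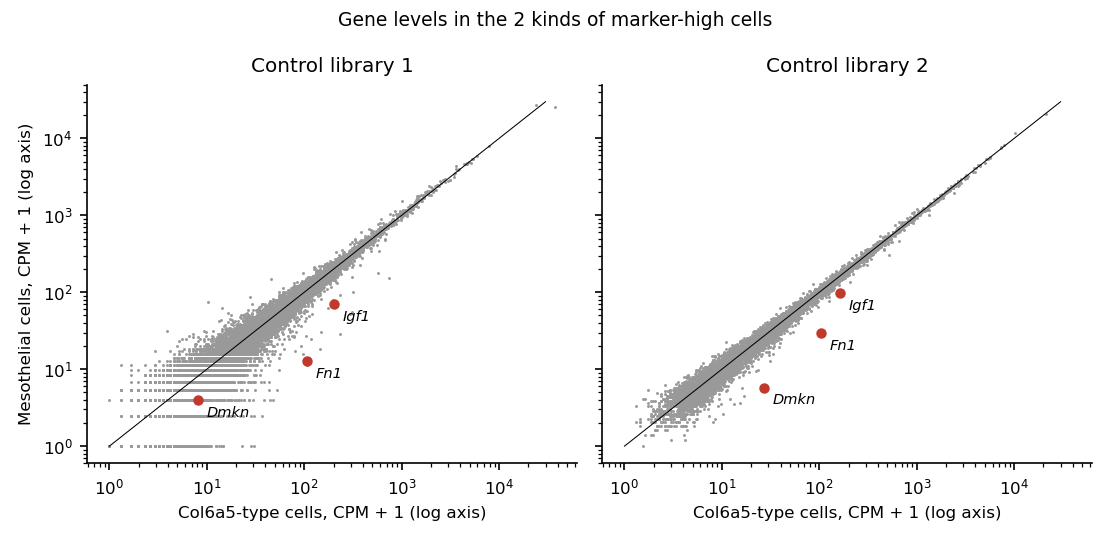
Each point is a tested gene, with its CPM plus 1 in Col6a5-type cells and in mesothelial cells (log axes), for control libraries 1 and 2, and the line marks equal levels. The 3 genes called lower, Fn1, Igf1 and Dmkn, are in red and lie below the line in both libraries, with Fn1 at 11.7 and 28.4 against 106 and 103 CPM.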

How the data were processed

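The authors deposited raw UMI counts per gene and barcode, without normalization. Per the submitters' processing notes, Cell Ranger 6.0.2 and mm10 were used. Annotation release, cell calling and strand setting are not given in the sources used here. Sample titles gave the groups and replicates. Of 32285 gene IDs, 32158 were found in GENCODE vM21, the source of the 1-based positions.

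Counts were summed per control library and cell group. Both groups of a comparison came from the same libraries, so the library was a block in edgeR 4.0.16 (R 4.3.3; filterByExpr, TMM, glmQLFit, glmQLFTest), two-sided, with Benjamini-Hochberg adjustment and a threshold of 0.05. The 13 genes of the rule were given no test. SE is the absolute log2 change over the square root of F. Summed groups held 683446 to 16828153 UMIs. Leaving out a library leaves 1 per group, so those values are log2 ratios of CPM with no test. No doublet caller was run. The Sftpc limit and an alternative without barcodes over 2 times the median UMI count of their group stand in for it. The fit was run on counts simulated from its own dispersion. It recovered 74% of 2-fold and 100% of 4-fold changes in the marker-low comparison, with 7 false calls. In the Col6a5-type comparison it recovered 64 and 96%, with 2 false calls. Changes were planted only in genes above a set mean level, so these rates do not cover genes of lower level. The simulation held no library effect, so it does not test how the block performs on these libraries.

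The cells, the 20 gene lists, the 8 lists of cell type markers and the motifs were chosen with earlier results of these data known. Named are Myrf, Wt1 and Msln, the 15 largest rises and 10 largest falls (adjusted p under 0.05, at least 50 CPM in the higher group, both libraries the same way), by the same rule the largest differences from Col6a5-type cells, up to 4 members of each list by smallest p, and the 10 genes with the largest Fano factors. Other list members and markers were named after their values were seen. Some list members that enter the counts are not reported here by name.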

Additional observations from a re-analysis of the deposited data

How the results depend on the processing

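Against marker-low cells, 96 of the 97 named genes kept their call under the other size factors (RLE), no low-count filter, DESeq2 1.42.0, no replicate block, stricter barcode and marker limits, no barcodes over 2 times the median UMI count and both other Col6a5-set conditions. Id1 was the exception, with all other control barcodes as comparison. Most of the 97 were picked for large called changes or small p in this same test, so kept calls were likely from the start. Of all 4428 genes called, 2181 were also called by DESeq2 and 2481 with all other control barcodes. DESeq2 called 1241 genes higher and 940 lower, all of which edgeR also called in the same direction, and with all other control barcodes 1228 were higher and 1427 lower, so that falls outnumbered rises there. Without the replicate block 1848 were higher and 1411 lower. The cause of these differences was not tested. Leaving out control replicate 1 or 2 turned no named gene's direction but moved the change of 54 or 62 of the 97 by more than its SE, and of 8 or 24 by more than 1.5-fold. Among these, Wt1 changed by 2.83 or 5.03, and without control replicate 2 Muc16 changed by 5.88 and Postn by -2.52. With 1 library left no count of calls could be made.

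Against Col6a5-type cells, the calls depended on the setting. Genes higher and lower numbered 12 and 67 without a low-count filter, 15 and 80 without barcodes over 2 times the median UMI count, and 40 and 102 with the Col6a5-set condition on thinned cells, which was chosen after seeing the data. Only 1 gene was lower with RLE size factors, with DESeq2 and with a marker limit of 30 CP10k, and 0 were lower with no replicate block. Igf1 had an adjusted p of 0.112 with RLE, 0.872 with the higher marker limit and 0.0661 with DESeq2. The log2 change without control replicate 1 or 2 was -1.85 or -3.07 for Fn1, -0.75 or -1.53 for Igf1 and -2.38 or -1.04 for Dmkn.

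The share of mesothelial cells in control libraries 1 and 2 was 5.67 and 4.57% with a marker limit of 30 CP10k, 37.2 and 18.9% with no Col6a5-set condition and 31.9 and 15.03% with that condition on thinned cells, both chosen after seeing the data, so the libraries' similar shares under the original condition were lost under both. It was 6.57% in control library 2 with no UMI of Sftpc allowed. Unthinned shares of cells with a UMI were 76.9 and 72.5% for Myrf, 88.5 and 78.9% for Wt1 and 57.7 and 48.7% for Msln. The 26 cells of control library 1 limit what its shares can show.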
